A study of Mus musculus with 16 samples.

Results

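The TRAV12 family, known from antibody work as Vα8, is a group of 9 V segments of the mouse TCRα locus: TRAV12-1, TRAV12-2 and TRAV12-3, their D copies TRAV12D-1, TRAV12D-2 and TRAV12D-3, and their N copies TRAV12N-1, TRAV12N-2 and TRAV12N-3. A sequence was counted as TRAV12 when the first V segment listed for it carried one of these names. That rule took 13541 of the 78671 sequences in the 8 libraries of all CD8 cells, and 154851 of their 815759 reads. Each of the 9 members was found, among 117 V segments in all. A sequence here is 1 distinct CDR3 nucleotide sequence of 1 library, and its reads are the sequencing reads that carry it.

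The libraries hold TCRα cDNA of single-positive (SP) CD8 thymocytes and of lymph node (LN) CD8 T cells, from Themis+/+ Foxp3-GFP and from Themis-/- Foxp3-GFP mice, with 2 libraries in each of the 4 groups. Themis-/- mice carry a germline deletion of Themis, and both genotypes carry the Foxp3-GFP reporter on a C57BL/6 background. The sources read for this account state no ages. The methods state that LN of several mice were pooled before sorting, while the design text speaks of individual mice, so p-values measure the spread between libraries, which may be partly technical. The tables list TCRα chains and do not measure Themis, so the genotypes rest on the labels. As a check of the gate, the invariant chain of NKT cells made up 0% to 0.0418% of reads in LN. In thymus it made up 0.0553% and 0.116% in Themis+/+ and, higher, 0.354% and 0.419% in Themis-/-. The MAIT chain made up at most 0.0424%.

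A TCRα chain is made by joining 1 of many V segments to 1 of many J segments. V segments close to the J cluster are joined first, to J segments at its near end, and a cell that is not selected can delete that joint and use a V farther upstream with a J farther downstream. The enzyme TdT adds N nucleotides at the junction, and the joined stretch, the CDR3, lies over the peptide when the receptor binds peptide-MHC. Themis is a T-lineage protein of TCR signalling needed for positive selection of thymocytes. The D and N names mark members of a duplicated array of V segments in C57BL/6.

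On chromosome 14 of GRCm38, plus strand, the members lie in 3 blocks in the order D, N and then the copies without a letter (base copies), all upstream of the J cluster, which runs from TRAJ61 at 54155005 to TRAJ2 at 54217836 and is followed by the constant region TRAC. All are annotated as TCR V gene segments. TRAV12D-1 is at chr14:52844465-52845041, TRAV12D-2 at chr14:52915799-52916426 and TRAV12D-3 at chr14:52929789-52930282. TRAV12N-1 is at chr14:53155512-53156088, TRAV12N-2 at chr14:53226773-53227400 and TRAV12N-3 at chr14:53240745-53241244. TRAV12-1 at chr14:53538191-53538738, TRAV12-2 at chr14:53616315-53616914 and TRAV12-3 at chr14:53621657-53622245 are the closest to the J segments. Every member gives the first 14 bases of the CDR3, of which 13 are shared, and they are shown because the residues compared below start from them. The capital marks the base that differs between the subgroups.
TRAV12-1, TRAV12D-1, TRAV12N-1, TRAV12-3, TRAV12D-3 and TRAV12N-3: tgtgctCtgagtga
TRAV12-2, TRAV12D-2 and TRAV12N-2: tgtgctTtgagtga
Both encode C, A, L and S followed by the first 2 bases of a codon for an acidic residue (aspartate or glutamate), whatever base follows.

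The letter of a copy could not be read from these transcripts. In GENCODE's annotation the D and N copies of a number are identical over the 436, 454 and 347 transcript bases of subgroups 1, 2 and 3. In the tables a D copy was the sole best match of only 3 sequences and an N copy of 4844, and in 3811 sequences a D copy and its N copy were tied. Sequences listed under D copies were also rarer ones: single-read sequences took 4.29% to 7.88% of the reads under D copies in a library, and 0.23% to 0.84% under N copies. D and N copies of a number are therefore joined below as TRAV12D/N, except where a single member is named as listed. The base copies can be told apart, with 17 of 344 coding bases of TRAV12-1 differing from TRAV12N-1 and 11 of 347 of TRAV12-3 differing from TRAV12D-3. The number of the subgroup also holds: of the sequences that keep 10 germline bases, 98.7% in subgroup 1, 99.2% in subgroup 2 and 99.1% in subgroup 3 carry that subgroup's base at position 7.

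The 8 libraries held 57455 to 146191 reads, and the TRAV12 sequences in them numbered 2912 and 1468 in Themis+/+ thymus, 2135 and 2205 in Themis-/- thymus, 2187 and 1027 in Themis+/+ LN and 699 and 908 in Themis-/- LN. No molecular identifiers are described, so reads are not independent molecules, and a share of reads cannot tell more cells from more TCRα mRNA per cell.

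In these libraries the 3′ end of the CDR3 often differed from the germline J segment. Of the 13541 TRAV12 sequences, 7220 carried at least 1 base that differs from the J segment assigned to them, which is 49.7% to 55.5% of the sequences and 27.4% to 34.3% of the TRAV12 reads of a library. Of the 9001 differing bases, 8459 lie 4 to 9 bases from the end of the CDR3, and 76.0% are a T read as G. At 4, 5, 6, 7 and 9 bases from the end, 34.96% to 41.6% of germline T were read as G, against 0.595% at 8. Other V segments of the same libraries gave the same profile, with 19.8% of sequences differing at 5 bases from the end against 20.6% for TRAV12, while the sorted Vα3.2 libraries of the series had such differences in 1.16% to 2.42% of their sequences and the unsorted ones in 50.4% to 57.7%. The cause was not tested. An example is 1 CDR3 with TRAJ23 whose 520 reads are spread over 4 versions, shown with the differing bases in capitals and the reads of each version.
248 reads: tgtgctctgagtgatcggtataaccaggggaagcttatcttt
106 reads: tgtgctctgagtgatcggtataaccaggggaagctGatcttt
92 reads: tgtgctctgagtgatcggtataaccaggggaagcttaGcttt
74 reads: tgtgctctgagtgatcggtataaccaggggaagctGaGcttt
The last 2 versions change the residue before the final F, from I to S, so counts of distinct CDR3s include such versions. With the J end set to germline and equal sequences merged, a step added after the tables were seen, the 12082 distinct TRAV12 nucleotide sequences of the 8 libraries became 6267 and the 8199 amino acid sequences 4689. The V part was little affected, with 0.560% of the 10885 sequences that keep at least 9 germline V bases differing in the first 6.

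**Figure D1:**
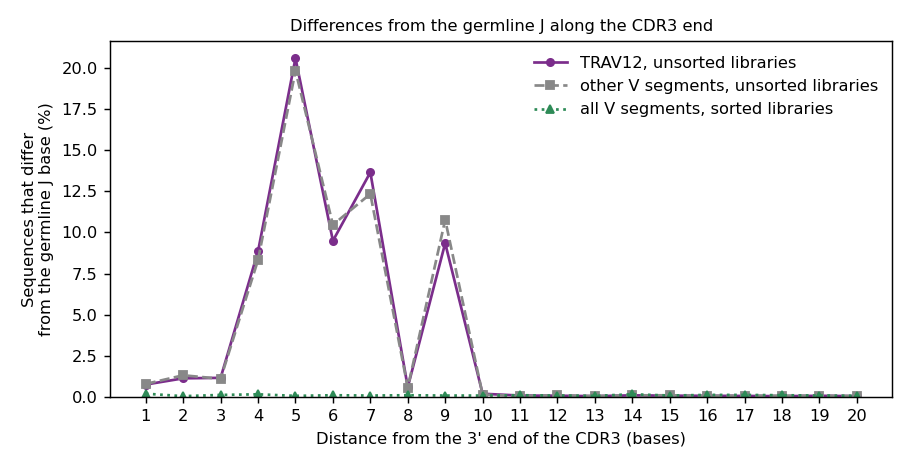
Percent of CDR3 sequences (vertical axis) that differ from the germline J base at each distance in bases from the 3′ end of the CDR3 (horizontal axis), for TRAV12 and for other V segments of the 8 unsorted libraries and for all V segments of the 8 sorted libraries. Differences in the unsorted libraries sit 4 to 9 bases from the end, 20.6% at 5 bases for TRAV12, and are near 0 from 10 bases on.

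TRAV12 was the most used of the 26 V families, with a mean of 18.9% of reads over the 8 libraries, followed by TRAV6 with 15.05% and TRAV7 with 13.0%. The share was 19.3% and 17.8% in Themis+/+ thymus, 20.7% and 19.0% in Themis-/- thymus, 18.1% and 20.9% in Themis+/+ LN and 17.0% and 18.6% in Themis-/- LN. The groups overlapped in both tissues, with means of 18.6% ± 1.09, 19.8% ± 1.19, 19.5% ± 1.98 and 17.8% ± 1.13 (SD, n = 2 each). Reads per family were tested with edgeR's quasi-likelihood test and Benjamini-Hochberg adjustment over the 23 families with enough reads. Between genotypes the log2 fold change of TRAV12 in Themis-/- was −0.18 ± 0.14 (SE) in LN (adjusted p = 0.652) and 0.14 ± 0.14 in thymus (adjusted p = 0.695). Between tissues, LN against thymus, it was 0.14 ± 0.14 in Themis+/+ (adjusted p = 0.894) and −0.18 ± 0.14 in Themis-/- (adjusted p = 0.635). TRAV12 passed in none of these, while 4.35% of families passed between genotypes in LN and 0% in each of the other comparisons. The difference of the genotype effects between LN and thymus, tested as an interaction in edgeR, was −0.32 on the log2 scale (adjusted p = 0.827). Without the second Themis+/+ LN library the LN value between genotypes was 0.086, so its sign rests on that library.

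Of the 12 other families with at least 1% of reads, TRAV8, TRAV7 and TRAV3 had shares most like that of TRAV12 across the 8 libraries, with Pearson r of 0.54, 0.41 and 0.36. These are descriptions over 8 points, and shares within a library sum to a fixed total.

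Among the members, the subgroup 3 copies of the duplicated array led. TRAV12D/N-3 took 6.36% ± 1.24 of all reads (SD over the 8 libraries), TRAV12-2 4.31% ± 1.05, TRAV12D/N-2 4.12% ± 0.875, TRAV12-1 2.00% ± 0.478, TRAV12-3 1.60% ± 0.414 and TRAV12D/N-1 0.524% ± 0.216. As listed, the order was TRAV12N-3 with 5.53%, TRAV12-2 with 4.31%, TRAV12N-2 with 2.78%, TRAV12-1 with 2.00%, TRAV12-3 with 1.60%, TRAV12D-2 with 1.35%, TRAV12D-3 with 0.825%, TRAV12N-1 with 0.431% and TRAV12D-1 with 0.0928%. TRAV12-2 and TRAV12D/N-2 differed by less than their SD, as did TRAV12-1 and TRAV12-3. Subgroup 2 thus had its reads divided almost evenly between the base copy and the duplicated copies, while those of subgroup 3 came mostly from the duplicated copies and those of subgroup 1 mostly from the base copy.

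Between genotypes, the duplicated copy of subgroup 3 was higher and TRAV12-2 lower in Themis-/- in both tissues without passing the test. TRAV12D/N-3 took 6.88% and 4.97% of reads in Themis+/+ thymus against 8.24% and 7.78% in Themis-/-. In LN it took 5.45% and 5.24% in Themis+/+ against 5.48% and 6.81% in Themis-/-, where the closest libraries of the genotypes were nearly equal. The groups did not overlap in either tissue. For groups of 2 against 2 an exact permutation test gives at best p = 0.3333, so lack of overlap alone, here and below, sets no member apart. With the D and N copies joined the edgeR log2 fold change was 0.45 ± 0.20 in thymus (adjusted p = 0.384) and 0.36 ± 0.20 in LN (adjusted p = 0.309).

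TRAV12-2 took 3.71% and 5.51% in Themis+/+ thymus against 3.56% and 2.57% in Themis-/-. Its LN shares were 5.27% and 5.50% in Themis+/+ against 4.11% and 4.24% in Themis-/-. Again the groups did not overlap in either tissue, and the log2 fold change was −0.49 ± 0.28 in thymus (adjusted p = 0.794) and −0.39 ± 0.28 in LN (adjusted p = 0.499), or −0.58 and −0.21 with the D and N copies joined. TRAV12-1 was ordered the same way, with 1.86% and 2.43% in Themis+/+ thymus against 1.67% and 1.36% in Themis-/-, and 2.61% and 2.52% in Themis+/+ LN against 1.54% and 2.02% in Themis-/-. Its log2 fold changes were −0.41 ± 0.36 (adjusted p = 0.838) and −0.56 ± 0.36 (adjusted p = 0.464). TRAV12-3, TRAV12D/N-1 and, in LN, TRAV12D/N-2 had overlapping groups.

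Over the 9 members as listed, 0 passed in each of the 4 comparisons, whereas of the 114 segments tested 1.75% passed between genotypes in LN, 0% between genotypes in thymus, 0% between tissues in Themis+/+ and 2.63% between tissues in Themis-/-. At an unadjusted p under 0.05 the edgeR counts of members were 0, 1, 0 and 1 in that order, or 0%, 11.1%, 0% and 11.1%. Over all 114 segments the shares were 17.5%, 7.02%, 0% and 15.8%. DESeq2 also called 0 members at an adjusted p under 0.05, against 7, 0, 0 and 4 of all 114 segments. The member in thymus was TRAV12N-3 with a log2 fold change of 0.54 ± 0.25 (adjusted p = 0.553), and the member between tissues in Themis-/- was TRAV12D-3, at −1.24 ± 0.50 (adjusted p = 0.176). The median log2 fold change of the members was −0.39 in LN and 0.20 in thymus between genotypes, against −0.09 and 0.08 over all segments.

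When distinct sequences were counted in place of reads, 3 single calls appeared. TRAV12-3 was lower in Themis-/- LN, by −0.82 ± 0.27 (adjusted p = 0.0413), where 8.33% of segments passed. TRAV12-2 was lower in Themis-/- thymus, by −0.70 ± 0.20 (adjusted p = 0.0444), where 2.78% passed. TRAV12-2 was also higher in LN than in thymus of Themis-/-, by 0.77 ± 0.21 (adjusted p = 0.0153), where 4.63% passed, and none passed between tissues in Themis+/+ (0%). The last of these was the only one that passed with the J end set to germline (adjusted p = 0.0103).

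**Figure D2:**
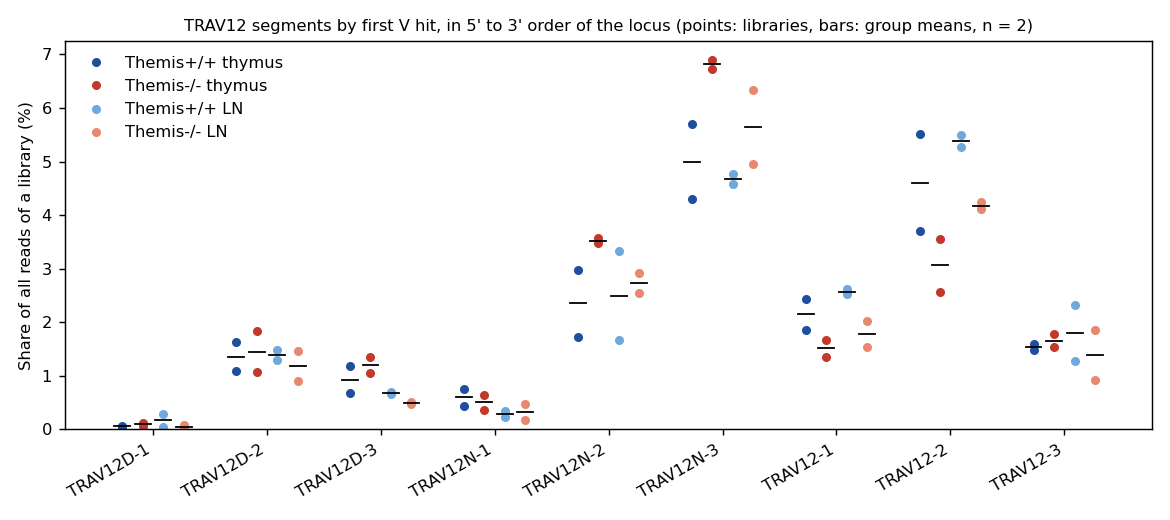
Share of all reads of a library (vertical axis, percent) for the 9 TRAV12 members in the 5′ to 3′ order of the locus (horizontal axis), with 1 point for each library, colours for genotype and tissue, and bars for the group means (n = 2). TRAV12N-3 is highest at a mean of 5.53% over the 8 libraries, TRAV12D-1 lowest at 0.0928%, and the Themis-/- libraries of TRAV12-2 lie below the Themis+/+ ones in both tissues.

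The blocks differed most in their J partners. TRAJ numbers fall from the end of the J cluster near the V segments (61) to the end near the constant region (2), so a higher mean number means J segments closer to V. Over the 8 libraries the mean TRAJ number of distinct sequences was 34.96 ± 2.70 (SD) for TRAV12-3, 34.8 ± 1.803 for TRAV12-2 and 30.6 ± 2.09 for TRAV12-1. It was 24.5 ± 2.81 for TRAV12D/N-2, 24.4 ± 5.41 for TRAV12D/N-1 and 21.6 ± 2.35 for TRAV12D/N-3. The block next to the J cluster thus used near J segments, and the blocks farther upstream used far ones, in every library: N copies averaged 21.5 and base copies 33.6, a difference of −12.1 ± 2.15 (SD of the 8 differences), lower in 8 of 8 libraries. An exact two-sided permutation test that flips the signs of the 8 library differences gave p = 0.0078, the smallest it allows (adjusted p = 0.0213 over 30 tests between subgroups and copies). It passed in every alternative run, at −12.5 to −11.6. Sequences listed under D copies averaged 24.4, which was −9.20 ± 1.84 from base copies and 2.86 ± 1.01 above N copies, but as given above nearly all of them were ties with an N copy.

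The shares of the J cluster show the same split. In Themis+/+ LN, TRAJ2 to TRAJ9 made up 3.12% and 2.48% of base copy sequences against 8.20% and 15.7% of D and N copy sequences. In Themis-/- thymus they made up 6.36% and 4.98% against 24.0% and 21.4%. At the other end, TRAJ48 to TRAJ61 made up 16.5% and 16.6% of base copy sequences in Themis+/+ LN against 7.20% and 5.62% of D and N copy sequences. Base copies were above D and N copies in this near class, and below them in the far class, in each of the 8 libraries.

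**Figure D3:**
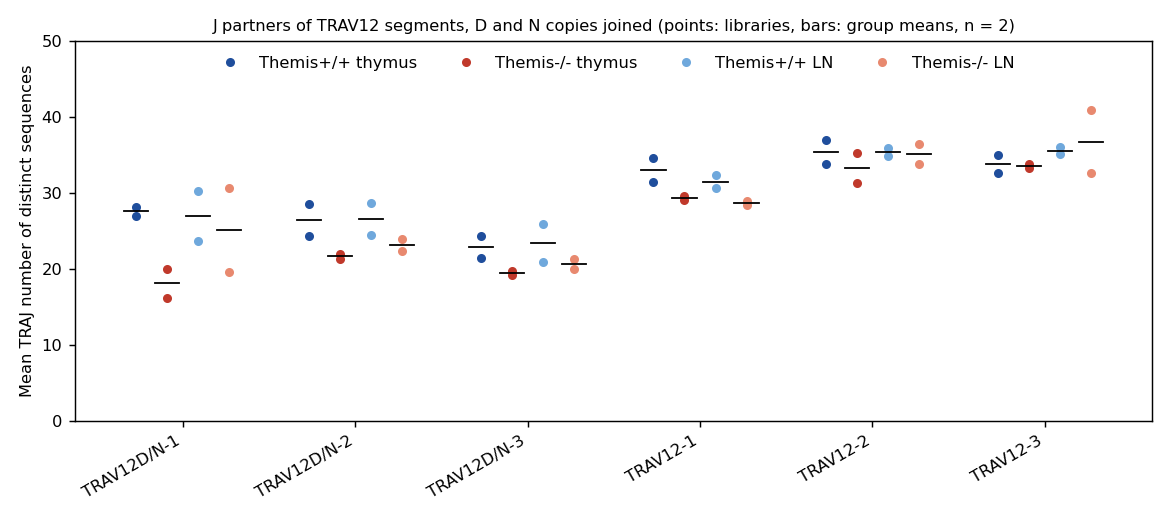
Mean TRAJ number of distinct sequences (vertical axis) for the TRAV12 segments with D and N copies joined (horizontal axis), with 1 point for each library and bars for group means (n = 2). TRAV12-1, TRAV12-2 and TRAV12-3 average 30.6 to 34.96 over the 8 libraries, and the joined copies 21.6 to 24.5.

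By subgroup, all copies together, subgroup 3 stood lowest, with a mean of 24.0 that was −5.29 ± 1.23 from subgroup 1 and −4.95 ± 1.35 from subgroup 2, both in 8 of 8 libraries (exact permutation p = 0.0078, adjusted p = 0.0213). Subgroups 1 and 2 differed by −0.33 ± 1.69 (exact permutation test, adjusted p = 0.713). The order was not that of the base copies, where TRAV12-3 had the highest mean (34.96), and most sequences of subgroup 3 were D and N copies.

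Compared with all other V segments of the same library, TRAV12 used J segments farther from V. Its mean TRAJ number was 26.8 against 29.2, a difference of −2.39 ± 0.668, lower in 8 of 8 libraries (exact permutation p = 0.0078, adjusted p = 0.0234 over 9 measures). The copies stood on either side of this: base copies, with a mean of 33.6, were above the other V segments in 8 of 8 libraries, and D and N copies below them.

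Between genotypes, TRAV12 paired with farther J segments in Themis-/-, as did the other V segments. The mean TRAJ number of TRAV12 was 26.3 and 31.0 in Themis+/+ thymus against 23.8 and 23.4 in Themis-/- thymus, and 30.5 and 27.4 in Themis+/+ LN against 25.9 and 25.9 in Themis-/- LN. The groups did not overlap in either tissue, but the Themis+/+ libraries lay nearly as far apart as the genotype means in thymus, and farther apart than those means in LN. The differences of the means were −4.998 in thymus and −2.995 in LN. With 2 libraries against 2, an exact permutation test cannot go below p = 0.3333, so no test is given. Other V segments differed by −4.64 in thymus and −3.61 in LN. Part of the TRAV12 difference moved with the use of the copies: base copies took 36.4% and 53.6% of TRAV12 reads in Themis+/+ thymus against 33.9% and 28.8% in Themis-/-, and 50.7% and 49.7% in Themis+/+ LN against 38.7% and 43.7% in Themis-/-. With every segment held at the same weight in each library, the differences were −3.44 in thymus and −2.09 in LN. Between tissues the means overlapped in Themis+/+ (28.6 ± 3.33 in thymus and 28.9 ± 2.17 in LN) and were higher in LN in Themis-/- (23.6 ± 0.266 and 25.9 ± 0.0244).

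By class of J segment, the far class TRAJ2 to TRAJ9 took 13.2% and 6.62% of TRAV12 reads in Themis+/+ thymus against 20.5% and 17.0% in Themis-/-. In LN it took 4.88% and 8.37% against 11.2% and 15.7%. Both tissues were higher in Themis-/- without overlap. For other V segments the same class took 10.04% and 4.19% against 12.4% and 11.8% in thymus, and 4.89% and 8.57% against 9.75% and 11.2% in LN. The near class TRAJ48 to TRAJ61 took 9.67% and 18.1% of TRAV12 reads in Themis+/+ thymus against 12.9% and 4.76% in Themis-/-, which overlap, but the 12.9% includes 1 TRAJ50 sequence with 5.80% of that library's TRAV12 reads. In LN it took 11.02% and 9.60% against 8.45% and 8.77%, without overlap. For other V segments it was lower in Themis-/- without overlap in both tissues, at 13.8% and 21.6% against 10.5% and 12.1% in thymus and 17.6% and 14.7% against 13.5% and 11.96% in LN.

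The 6 J segments most used by TRAV12 were TRAJ22 (6.91% ± 1.79 of TRAV12 reads, SD over the 8 libraries), TRAJ23 (6.52% ± 1.47), TRAJ31 (5.07% ± 1.26), TRAJ30 (5.01% ± 2.53), TRAJ26 (4.94% ± 1.74) and TRAJ15 (4.64% ± 1.77). Neighbours in this order differed by less than the larger of their SDs. TRAJ23 stood at 4.45% to 8.45% of TRAV12 reads in a library against 2.89% to 4.68% of the reads of other V segments. In the first Themis-/- thymus library the order was reversed, at 4.45% for TRAV12 against 4.68%. As a share of each segment's own reads, TRAJ23 was largest with TRAV12D/N-3, at 10.3%. It took 8.90% with TRAV12-1 and 7.54% with TRAV12D/N-1, against 2.58% with TRAV12-3. TRAJ15 was also largest with TRAV12D/N-3, at 8.43%, against 1.002% with TRAV12-3. TRAJ22 took 16.3% of TRAV12D/N-1 and 10.2% of TRAV12D/N-2, and 5.12% of TRAV12D/N-3.

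Of the 43 TRAV12 J pairs tested, edgeR called 0 in each of the 4 comparisons at an adjusted p under 0.05, against 0.144% of all 694 pairs of V family and J segment between genotypes in LN, 0% between genotypes in thymus, 0% between tissues in Themis+/+ and 0.432% between tissues in Themis-/-. At an unadjusted p under 0.05 in edgeR the TRAV12 counts were 2, 4, 0 and 4, or 4.65%, 9.30%, 0% and 9.30% of its pairs. Over all 694 pairs the shares were 10.5%, 2.74%, 2.02% and 8.79%. DESeq2 called 0, 0, 0 and 1 TRAV12 pairs at an adjusted p under 0.05, against 35, 0, 0 and 16 of all 694. Between genotypes, the pair with the smallest p, named after its values were seen, was that with TRAJ7, a segment at the far end of the cluster. It took 1.32% and 2.37% of TRAV12 reads in Themis+/+ LN against 5.77% and 6.40% in Themis-/- LN, with a log2 fold change of 1.68 ± 0.59 (edgeR adjusted p = 0.299). The 5.77% includes 2.52% from 1 CDR3, CALSDRYSNNRLTL, which 22 nucleotide sequences encode in the series. That CDR3 took 0.313% in the second Themis-/- LN library and 0.0750% and 0.150% in Themis+/+ LN. In thymus the TRAJ7 pair took 3.61% and 1.59% against 4.53% and 5.55%. Among other V segments TRAJ7 took 0.739% and 1.67% against 1.51% and 2.74% in LN, where the groups overlap.

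TRAV12 CDR3s were slightly shorter than those of other V segments, at 40.1 bases against 40.7, a difference of −0.567 ± 0.295 bases, with 1 of 8 libraries the other way (exact permutation p = 0.0156, adjusted p = 0.0281). CDR3s of 14 residues were the most common, in 27.1% of TRAV12 sequences and 30.8% of the others. The difference lay in a flatter spread: 13 residues made up 19.3% against 26.3%, and 10, 11 and 12 residues 3.94%, 7.41% and 18.3% against 1.17%, 4.49% and 14.9%. With all copies together, subgroup 3 had the shortest CDR3s. Its mean of 39.7 bases was −0.678 ± 0.411 from subgroup 1, lower in 8 of 8 libraries (exact permutation test, adjusted p = 0.0213), and −0.714 ± 0.511 from subgroup 2 (adjusted p = 0.0586). With the J end set to germline the difference from subgroup 1 was −0.350 and did not pass (exact permutation test, adjusted p = 0.0670), nor did it weighted by reads or with 1 best V segment. The short CDR3s were those of TRAV12D/N-3, at 39.5 bases, while TRAV12-3, at 40.7, had the longest of the base copies (40.4 for TRAV12-1 and 40.3 for TRAV12-2). By genotype the mean length was 40.1 and 40.3 bases in Themis+/+ thymus, 40.0 and 39.8 in Themis-/- thymus, 40.0 and 40.0 in Themis+/+ LN and 40.0 and 40.6 in Themis-/- LN, which overlap in LN.

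TRAV12 junctions carried slightly more N nucleotides than those of other V segments, here counted as the bases between the germline V and J parts. The mean was 2.94 against 2.78, a difference of 0.155 ± 0.114, higher in 7 of 8 libraries (exact permutation p = 0.0156, adjusted p = 0.0281). The exception was the second Themis-/- thymus library, with 2.67 against 2.70. When 1 library was left out at a time, the differences in length and in N nucleotides did not pass in 6 of 8 cases each (exact permutation test, adjusted p of up to 0.0563). With 1 library fewer, the smallest p this test allows is larger. Over all alternative runs the differences were −0.649 to −0.483 bases and 0.121 to 0.195 N nucleotides. Weighted by reads the difference in N nucleotides was 0.121 and did not pass (exact permutation test, adjusted p = 0.164). The most common number was 3, in 18.7% of TRAV12 sequences, and 13.6% ± 1.16 had none against 14.8% ± 1.44 for other V segments (difference −1.14 ± 1.81 points, exact permutation test, adjusted p = 0.161). The subgroups had 2.88, 2.94 and 2.96 N nucleotides in order of number, and none of their differences passed (exact permutation test, adjusted p of 0.713 and above).

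In Themis-/- the TRAV12 junctions had fewer N nucleotides in both tissues. The mean was 3.04 and 3.08 in Themis+/+ thymus against 2.86 and 2.67 in Themis-/-, and 3.05 and 3.10 in Themis+/+ LN against 2.78 and 2.94 in Themis-/-. The groups did not overlap, with differences of the means of −0.292 and −0.214, for which no test is given, as above. Weighted by reads they overlapped in LN, at 2.77 and 3.21 against 2.79 and 2.89. Other V segments were lower as well, by −0.171 in thymus and −0.249 in LN. Sequences without N nucleotides made up 12.1% and 11.9% of TRAV12 in Themis+/+ thymus against 14.6% and 14.5% in Themis-/- thymus, and overlapped in LN.

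The residue at CDR3 position 5 differed between TRAV12 and the pool of other V segments, whose families are not shown apart. The paper reports acidic residues, above all aspartate, as frequent there in TCRs without Vα3.2, a set it drew from TRAV14, TRAV6 and TRAV12. An acidic residue stood there in 38.2% of TRAV12 sequences of all lengths against 26.0% of the others, a difference of 12.2 ± 3.13 points, higher in 8 of 8 libraries (exact permutation p = 0.0078, adjusted p = 0.0234). In CDR3s of 14 residues, position 5 was D in 40.4% ± 6.05 and E in 12.4% ± 2.73 of TRAV12 sequences, while other V segments had A in 18.9%, E in 14.9% and D in 10.8%. All 14 of the germline bases shown above were kept in 33.8% ± 2.51 of TRAV12 sequences, in which position 5 is acidic by construction. By library the acidic share was 36.4% and 37.1% in Themis+/+ thymus, 34.6% and 35.4% in Themis-/- thymus, 38.6% and 41.1% in Themis+/+ LN and 39.8% and 42.7% in Themis-/- LN. In LN the genotypes overlapped, and in both genotypes each LN library lay above each thymus library.

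Subgroup 3 carried the acidic residue in 41.0% of its sequences, 5.41 ± 2.81 points more than subgroup 2 (8 of 8 libraries, exact permutation test, adjusted p = 0.0213) and 4.65 ± 5.14 more than subgroup 1 (adjusted p = 0.0625). In its CDR3s of 14 residues, D stood at position 5 in 50.7% ± 9.35 and R at position 6 in 27.6% ± 6.999, the residues that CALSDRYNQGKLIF, described below, also carries. Its summed Kyte-Doolittle hydropathicity over 14 residues was 0.748, against 2.28 for subgroup 1 and 2.68 for subgroup 2, lower than both in 8 of 8 libraries (exact permutation test, adjusted p = 0.0213 each). With the J end set to germline, the difference from subgroup 1 was −0.942 in place of −1.53 and did not pass (exact permutation test, adjusted p = 0.258), while that from subgroup 2 was −1.16 in place of −1.94 and passed (adjusted p = 0.0234). Weighted by reads, neither hydropathicity difference passed, nor did the acidic share of subgroup 3 against subgroup 2 (exact permutation test, adjusted p = 0.0938, 0.0804 and 0.0625). TRAV12 and other V segments did not pass in hydropathicity (1.76 against 1.99, exact permutation test, adjusted p = 0.438) or net charge (0.336 against 0.312, adjusted p = 0.352).

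**Figure D4:**
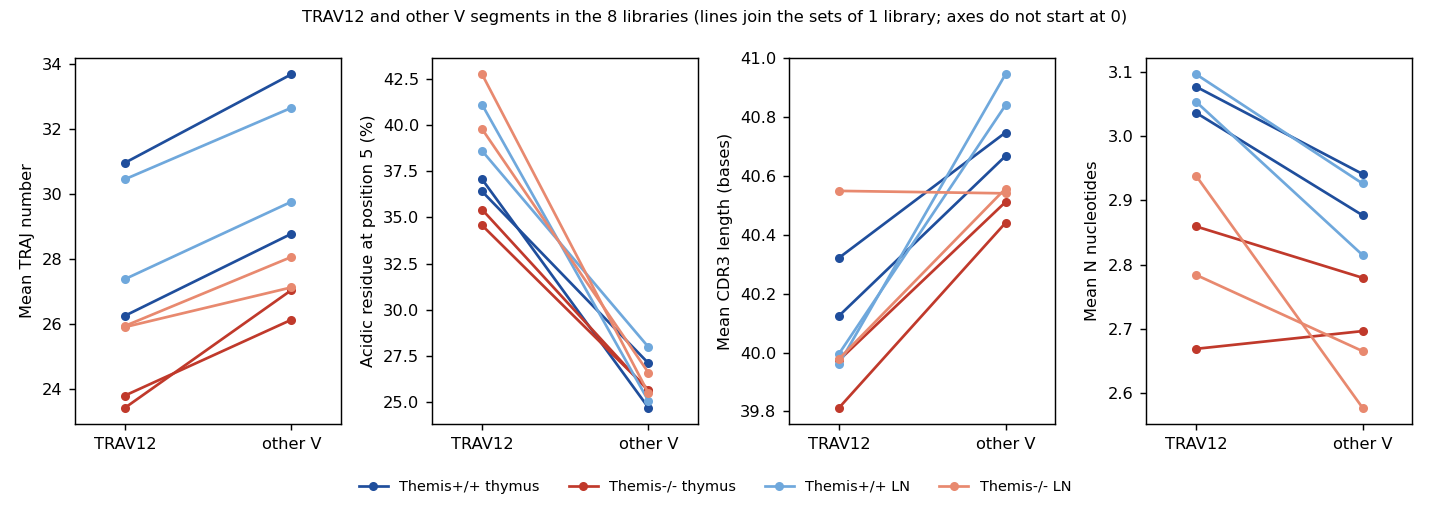
Mean TRAJ number, percent of sequences with an acidic residue at CDR3 position 5, mean CDR3 length in bases and mean N nucleotides (vertical axes, which do not start at 0) for TRAV12 and for other V segments, with a line for each of the 8 libraries. The first 2 measures differ in the same direction in 8 of 8 libraries, by −2.39 and 12.2 points on average, and the others in 7 of 8.

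The fewest TRAV12 sequences were found in Themis-/- LN. At 11326 reads, the TRAV12 depth of the smallest library, the number of distinct sequences was 2421 and 1338 in Themis+/+ thymus, 1744 and 1921 in Themis-/- thymus, 1883 and 1016 in Themis+/+ LN and 699 and 867 in Themis-/- LN. In each tissue the Themis+/+ libraries lay farther from each other than the genotype means did, and in thymus the genotypes overlapped. The Themis-/- LN libraries lay below all 6 others, and so they did for other V segments at the same number of reads, with 2462 and 2892 distinct sequences against 3156 to 5911. The order was the same with the J end set to germline, at 1403, 789, 906, 1029, 1001, 561, 368 and 448. The 10 most abundant sequences took 5.64% and 10.6% of TRAV12 reads in Themis+/+ thymus, 14.8% and 7.09% in Themis-/- thymus, 5.81% and 15.1% in Themis+/+ LN and 16.8% and 14.8% in Themis-/- LN, which overlap in both tissues. With the J end set to germline the LN shares were 7.68% and 15.7% in Themis+/+ against 24.0% and 20.2% in Themis-/-, without overlap. Over distinct amino acid sequences they were 8.50% and 16.0% against 20.3% and 16.8%, also without overlap. The thymus groups overlapped in both of these versions. Single-read sequences took a smaller part of TRAV12 reads than of the others, 1.49% against 1.78%, lower in 8 of 8 libraries (exact permutation p = 0.0078, adjusted p = 0.0234). The others hold several times the reads of TRAV12 in each library, and when both were thinned to equal reads the difference was −14.5 points. The others also pool many more V segments. At 11326 reads they held 2462 to 5911 distinct sequences against 699 to 2421 for TRAV12. Neither difference therefore compares clone sizes.

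**Figure D5:**
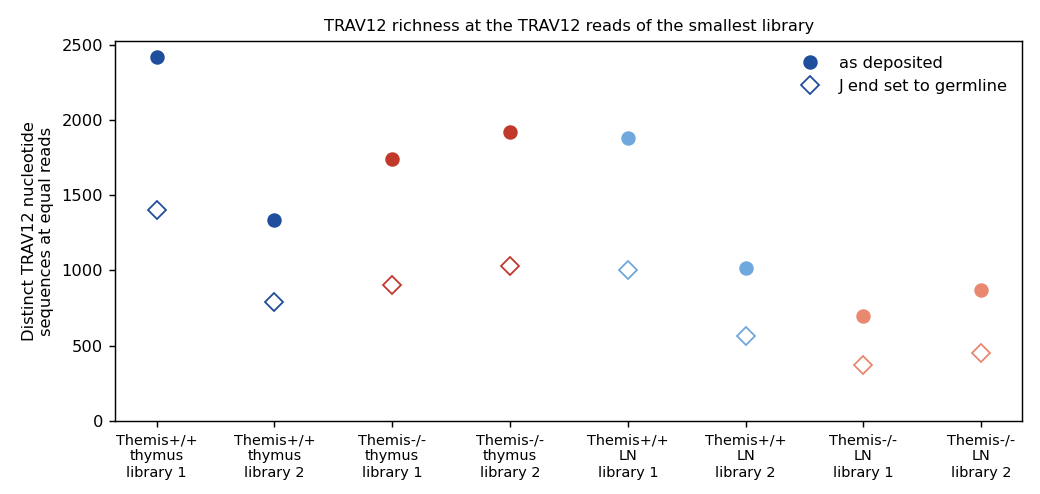
Distinct TRAV12 nucleotide sequences (vertical axis) at the 11326 TRAV12 reads of the smallest library, for each of the 8 libraries (horizontal axis), as deposited (filled) and with the J end set to germline (open). The Themis-/- LN libraries, at 699 and 867, are lowest in both versions.

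The most abundant TRAV12 sequence of each library is given with its N nucleotides in capitals, to show which members and junctions led.
Themis+/+ thymus 1, TRAV12-2 and TRAJ26, 159 reads: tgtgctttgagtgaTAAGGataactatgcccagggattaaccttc
Themis+/+ thymus 2, TRAV12N-3 and TRAJ26, 380 reads: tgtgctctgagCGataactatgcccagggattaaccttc
Themis-/- thymus 1, TRAV12N-3 and TRAJ50, 1752 reads: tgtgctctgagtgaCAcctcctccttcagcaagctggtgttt
Themis-/- thymus 2, TRAV12N-3 and TRAJ15, 325 reads: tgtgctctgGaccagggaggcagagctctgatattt
Themis+/+ LN 1, TRAV12N-3 and TRAJ22, 173 reads: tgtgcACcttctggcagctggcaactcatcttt
Themis+/+ LN 2, TRAV12-2 and TRAJ34, 302 reads: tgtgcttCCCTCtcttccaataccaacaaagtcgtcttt
Themis-/- LN 1, TRAV12N-2 and TRAJ30, 326 reads: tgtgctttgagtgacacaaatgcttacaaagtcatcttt
Themis-/- LN 2, TRAV12-2 and TRAJ22, 312 reads: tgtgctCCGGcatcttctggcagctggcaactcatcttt
TRAV12N-3 led 4 of the 8 libraries and TRAV12-2 led 3. The TRAJ50 sequence of the first Themis-/- thymus library, encoding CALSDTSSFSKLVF, took 5.80% of its TRAV12 reads, while the others took 0.658% to 2.88%. It was found in none of the other libraries, and neither were 4 of the other leading sequences. The leading sequence of the first Themis-/- LN library, which has no N nucleotides and encodes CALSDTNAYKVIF, was found in 4 other libraries.

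Most TRAV12 CDR3s were found in 1 library. Of the 8199 distinct amino acid sequences, 6708 (81.8%) were in 1 library and 8 were in all 8, and of the 12082 nucleotide sequences 11080 (91.7%) were in 1 library and 2 in all 8. Between libraries of the same group, the shared amino acid sequences were 9.41% and 17.4% of the lists in Themis+/+ thymus, 16.8% and 16.4% in Themis-/- thymus, 7.81% and 16.4% in Themis+/+ LN and 10.99% and 8.48% in Themis-/- LN. Sharing was not confined to libraries of the same group: the first Themis-/- LN library shared 21.3% of its list with the first Themis+/+ thymus library, the one with the most sequences, and 10.99% with the other library of its group. Amino acid sequences found in more libraries more often had a version without N nucleotides, at 6.57% in 1 library, 36.4% in 5 and 62.5% in 8. With the J end set to germline these shares were 4.32% in 1 library and 44.4% in 8, the last of only 9 sequences. An amino acid sequence in more libraries can pool more nucleotide versions, which by itself can raise this share. Among nucleotide sequences the share without N was 8.45% in 1 library and 63.6% in 5. It was 42.9%, 50% and 0% in 6, 7 and 8 libraries, of only 14, 6 and 2 sequences. Libraries differ in depth, whose part in the sharing was not tested.

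Of the 8 CDR3s found in 8 of 8 libraries, the 5 with the highest mean share of TRAV12 reads are shown with their most abundant nucleotide sequence, N nucleotides in capitals.
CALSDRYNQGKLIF, TRAJ23: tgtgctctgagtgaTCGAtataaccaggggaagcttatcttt
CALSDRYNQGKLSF, TRAJ23: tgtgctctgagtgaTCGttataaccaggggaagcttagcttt
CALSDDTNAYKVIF, TRAJ30: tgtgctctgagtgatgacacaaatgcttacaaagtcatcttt
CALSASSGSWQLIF, TRAJ22: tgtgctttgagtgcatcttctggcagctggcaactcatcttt
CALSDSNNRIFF, TRAJ31: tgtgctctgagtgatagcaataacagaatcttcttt
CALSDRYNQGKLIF was the largest, at 0.338% to 1.79% of TRAV12 reads, with a mean of 1.17%. It was reached by 19 different nucleotide sequences, the commonest of which made up 17.4% of its reads, and it came from TRAV12 alone among the V families. The second, with a mean of 0.460%, differs from it by S in place of I before the final F, at one of the J end positions described above, so the 2 are not independent. The other 3 need no N nucleotides in the sequence shown and had means of 0.378%, 0.247% and 0.229%.

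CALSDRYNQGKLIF took 0.729% and 1.18% of TRAV12 reads in Themis+/+ thymus, 0.338% and 0.956% in Themis-/- thymus, 1.66% and 1.79% in Themis+/+ LN and 1.49% and 1.21% in Themis-/- LN. Each LN library lay above each thymus library, by little at the closest, and the genotypes overlapped in thymus but not in LN. The tissue order did not hold for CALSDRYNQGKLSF, which includes J end versions of the same CDR3. Its share in the second Themis-/- LN library was 0.366%, below 0.468% and 0.446% in the second Themis+/+ and Themis-/- thymus libraries. The separation by tissue therefore rests on counting the 2 apart. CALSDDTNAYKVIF ranged from 0.0530% to 1.45% and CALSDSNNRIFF from 0.0228% to 1.09%, each with its highest value in the second Themis-/- LN library. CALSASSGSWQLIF was at 0.0574% to 0.386% and also arose with other V segments, 41.2% of its reads in the series being listed under TRAV6. The same holds more widely: of 1301 TRAV12 nucleotide sequences also found in another library under any V family, 407 (31.3%) were also listed under another family, 328 of them under TRAV6. Within a library, 5 TRAV12 sequences were tied with a segment outside the family.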

How the data were processed

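TCRα cDNA was made from total RNA by template switching, amplified in 2 rounds of PCR and sequenced on a MiSeq instrument. Per the labels and methods, the authors assigned V and J segments and CDR3s with MiXCR, whose version and reference are not named in those sources, and deposited 1 table for each library with the read count and the fraction of reads of each sequence. The deposited fraction equals the read count divided by the library total, so only counts were tested. The submitters' processing notes also list CASAVA 1.4 and mm9, with no role given. Between 13.9% and 16.9% of the clone numbers of a library are missing from its table. The 8 libraries of sorted Vα3.2 cells served only to compare the J end and to count TRAV12 reads.

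Reads were summed by first V hit. Families, segments and pairs with at least 10 reads in 2 libraries were tested with edgeR 4.0.16 (R 4.3.3; TMM, quasi-likelihood, 1 fit of the 4 groups, Benjamini-Hochberg adjustment over all features), with DESeq2 1.42.0 as an alternative. TRAV12 and other V segments, subgroups and copies were compared within libraries with an exact two-sided permutation test over the signs of the 8 differences, with p-values adjusted over 9 or 30 tests. Germline V and J parts were aligned from each end with a score of 1 for a match and -3 for a mismatch, and the bases between were counted as N. Germline sequences and positions are GENCODE's on GRCm38. Means per library are over distinct sequences unless reads are named. The scripts were tested on simulated data. Named items were all 9 members, the 6 most used J segments, called pairs, the 5 CDR3s of at most 14 residues found in most libraries (ties by mean share of TRAV12 reads) and the top sequence of each library. The members, lists and tests were chosen with earlier results of these data known. Shares carry counting error and PCR error, and the depth of each library is its read total. Other steps ran in Python 3.11.15 with scipy 1.17.1, pandas 2.3.3 and numpy 2.4.6, and figures in matplotlib 3.10.9.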

Additional observations from a re-analysis of the deposited data

Results flagged for a closer look

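TRAV12 reads also appeared in libraries of cells sorted for Vα3.2, which entered no comparison of TRAV12. The first sorted Themis+/+ LN library held 4 such reads in 3 sequences. The first sorted Themis-/- LN library held 9 in 4, and the second sorted Themis-/- thymus library 6 in 2. Each is above 3 reads, the bound for a count of 0 were reads independent. Reads are not independent molecules, so that bound cannot decide whether these counts differ from 0. The 5 other sorted libraries held 0.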

How the results depend on the processing

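Counting distinct sequences in place of reads gave 1 called member between genotypes in LN, 1 in thymus and 1 between tissues in Themis-/-, against 0 by reads. With the J end set to germline, a choice made after the data were seen, 1 was called, between tissues in Themis-/-. DESeq2 called 1 J pair between tissues in Themis-/- (TRAJ57), where it called 16 of all 694 pairs. Leaving out 1 library at a time gave 0 to 1 J pairs between genotypes in LN, the 1 without the second Themis-/- LN library. The family's log2 fold change between genotypes in LN was −0.18, but 0.0084 in sequences with the J end set and −0.28 to 0.086 on leaving out 1 library. Between tissues in Themis+/+ it was −0.040 to 0.25. The negative value there and the positive one before arose without the second Themis+/+ LN library.

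For TRAV12 minus other V segments, leaving out 1 library moved CDR3 length from −0.649 to −0.507 bases and N nucleotides from 0.125 to 0.181, with an adjusted p of 0.0563 in 6 of 8 cases each, and nucleotide sequences per amino acid sequence from 0.0150 to 0.0278. Weighted by reads, N nucleotides differed by 0.121. With the J end set, the share without N differed by −1.57 points and passed, and net charge by −0.00859. Over distinct amino acid sequences hydropathicity differed by 0.287. Nucleotide sequences per amino acid sequence differed by 0.0223 in the main run and did not pass (exact permutation test, adjusted p = 0.0938). At equal reads they differed by 0.0701 and with 1 best V segment by 0.0281, both of which passed. With the J end set the difference was 0.0018 and did not pass (exact permutation test, adjusted p = 0.826). With 1 best V segment, single-read reads of subgroup 3 minus subgroup 1 were −0.557 points, and D minus base copies 5.72 in TRAJ number, from only 3 D sequences.

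For LN minus thymus in Themis-/-, the TRAJ difference was 1.46 over amino acid sequences and 1.89 with the J end set, the N difference 0.294 weighted by reads, and the richness difference −758 and −560. Weighted by reads, the N difference was 0.128 in Themis+/+. The cause of these changes was not tested. Replicate numbers do not pair samples in the labels, and same-numbered libraries correlated at −0.204 to 0.0173. With the replicate block, 0 members and 0 J pairs were called in each comparison, and the family values were −0.18, 0.15, 0.14 and −0.18. Over all members, comparisons and alternatives, 57 recomputed log2 fold changes of uncalled members changed sign.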
